A study of Mus musculus with 2 samples.

Results

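The 10 genes described here are effectors of the Hippo pathway and genes that its effector YAP switches on, and they were followed in mammary basal cells with and without macrophage depletion. They were picked by symbol from a table of raw read counts for 49492 genes: *Yap1*, *Wwtr1* (which encodes TAZ), *Tead1*, *Tead4*, *Lats2*, *Ctgf*, *Cyr61*, *Ankrd1*, *Amotl2* and *Axl*. *Ctgf* and *Cyr61* are older symbols of *Ccn2* and *Ccn1*. RNA came from basal cells sorted by flow cytometry (lin-CD24+CD29hi) from adult female wild-type mice at the time labelled day 7. One group had received clodronate liposomes (CL), lipid vesicles that kill the macrophages that take them up, and is called CL basal. The other, Ctrl basal, is labelled as having no treatment, while the series text gives it as saline. Each group held 1 library. The number of animals behind a library is not given in the sources used here, so the differences below have no replicate check, and they compare 2 libraries and not 2 conditions.

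In the Hippo pathway, a chain of kinases that ends in LATS1 and LATS2 phosphorylates YAP and TAZ and keeps them out of the nucleus. When the kinases are less active, for instance on a stiff matrix or in spread cells, YAP and TAZ enter the nucleus, bind the DNA-binding proteins TEAD1 to TEAD4 and switch on genes such as *Ctgf*, *Cyr61* and *Ankrd1*. YAP and TAZ are mainly controlled through phosphorylation and location, which read counts do not measure. In the mammary gland, the pathway is known for its part in the growth and identity of basal and luminal cells.

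TEAD proteins bind a short motif, GGAATG on one strand and CATTCC on the other. It was searched on both strands, as the only motif, in RefSeq promoter windows (build GRCm38.p6) that run from 250 bases before to 50 bases after each start. Of the 10 members, 7 matched an entry of that promoter table, and *Tead1*, *Tead4* and *Ctgf* did not. All 7 genes held a match, in 8 of their 9 windows, whereas 14.7% of all 32851 windows and 16.6% of the 27025 genes in the table held one. Among genes with at least 20 counts in these libraries, 14.9% of 11686 held one. The matches are shown because TEAD proteins are known to bind this motif, as 30 bases around each, 5′ to 3′ on the strand of the gene, with the motif in capitals.
*Yap1* (chr9:8004720-8004749, minus strand): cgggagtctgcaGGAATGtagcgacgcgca
*Wwtr1* (chr3:57576029-57576058, minus strand): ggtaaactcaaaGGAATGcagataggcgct
*Lats2* (chr14:57746102-57746131, minus strand): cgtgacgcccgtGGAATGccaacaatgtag
*Cyr61* (chr3:145650071-145650100, minus strand): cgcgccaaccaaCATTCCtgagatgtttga
*Ankrd1*, distal (chr19:36120037-36120066, minus strand): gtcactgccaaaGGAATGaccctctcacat
*Ankrd1*, proximal (chr19:36119950-36119979, minus strand): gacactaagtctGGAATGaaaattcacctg
*Amotl2* (chr9:102717727-102717756, plus strand): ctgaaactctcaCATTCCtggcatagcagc
*Axl* (chr7:25788949-25788978, minus strand): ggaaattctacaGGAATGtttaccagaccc

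The matches began 65 bases before the start in *Amotl2*, 103 in *Cyr61*, 141 in *Yap1* and 233 in *Axl*. *Ankrd1* held a pair of matches, 210 and 123 bases before its start. In *Lats2* the match lay just after the start, at base 5 of the transcript. The *Wwtr1* match was a single site that fell in both of its windows, 136 or 170 bases before the start, depending on which start is used. *Ankrd1* is shown with all 250 bases before its start (chr19:36119845-36120094, minus strand), since it held the most matches.
*Ankrd1* upstream: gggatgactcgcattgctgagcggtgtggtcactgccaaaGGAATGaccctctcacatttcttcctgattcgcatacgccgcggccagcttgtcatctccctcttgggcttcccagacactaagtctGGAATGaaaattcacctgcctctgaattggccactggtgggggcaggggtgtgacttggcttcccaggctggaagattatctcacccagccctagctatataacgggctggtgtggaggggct

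A match is a description of these letters and not evidence of binding. Genes with a match included some with higher, some with lower and some with near equal counts in CL basal, as the values below show. The motif was also found in 2 of the 10 matched genes of a further list of YAP and TAZ targets, in 4 of 14 genes of the kinase cascade and in 6 of 10 genes for partners of YAP, TAZ and TEAD.

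**Figure D1:**
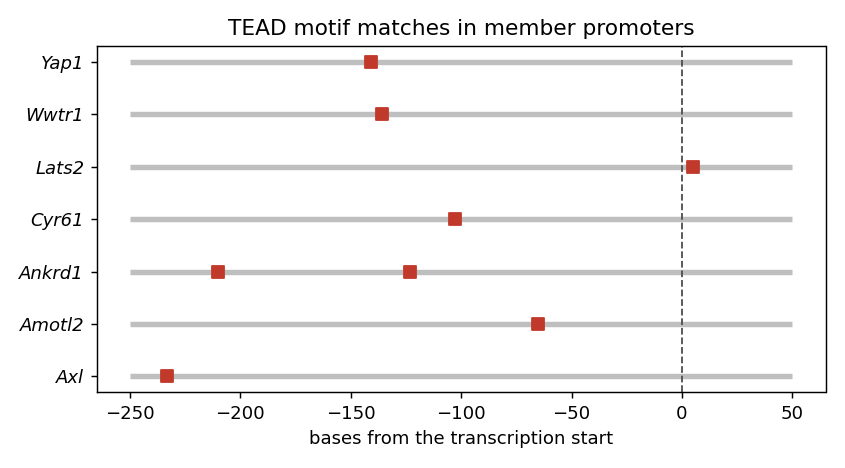
Start of each GGAATG or CATTCC match (red squares) in bases from the transcription start (dashed line), for the 7 member genes found in the promoter table; grey bars are the searched windows. *Lats2* alone has its match after the start, and *Ankrd1* alone has a pair; for *Wwtr1* the distance is drawn from its more upstream start.

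All 10 genes were detected in both libraries, at levels that spanned a wide range. Levels are given in RPKM, reads scaled to exon length and library size, so that genes of different length can be compared. The matricellular proteins encoded by *Ctgf* and *Cyr61*, which are secreted and bind integrins, were the most abundant in both libraries. *Ctgf* stood at 239.9 RPKM in Ctrl basal and 120.5 in CL basal, and *Cyr61* at 135.7 and 111.7. They were followed by *Wwtr1*, *Axl*, *Amotl2*, *Yap1* and *Lats2* in the same order in both libraries. At the lower end, *Tead1* and *Ankrd1* were neighbours whose 95% counting intervals overlapped. *Tead1* was the higher of them in Ctrl basal (5.20 against 4.58 RPKM) and *Ankrd1* in CL basal (5.38 against 4.39). *Tead4* was the least abundant in both.

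**Figure D2:**
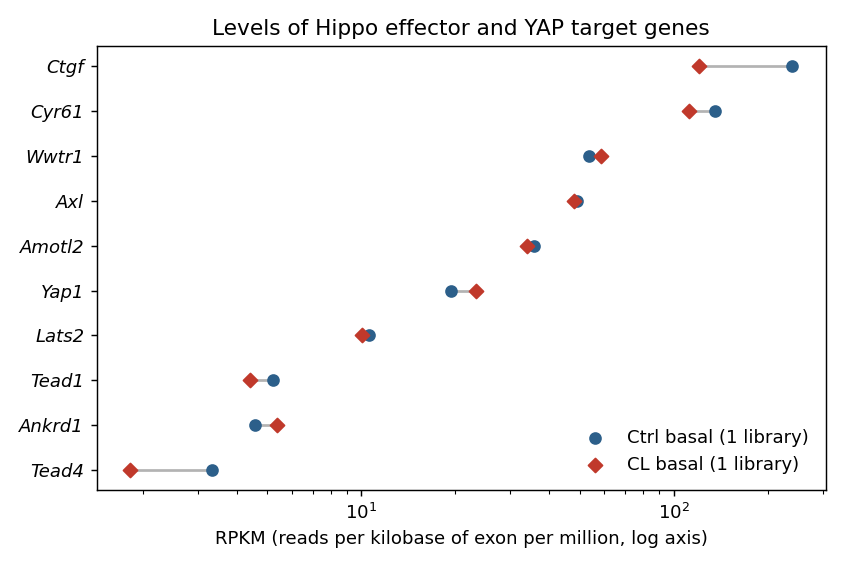
Level of each member in RPKM (log axis) in the Ctrl basal library (blue circles) and the CL basal library (red diamonds), 1 library per group and no error bars. *Ctgf* and *Tead4* show the widest gaps between the libraries, and the order of the 7 most abundant genes is the same in both.

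The comparison of CL basal with Ctrl basal asked whether these genes differed after macrophages had been removed. *Ctgf* was about halved in CL basal and *Tead4* was 45.4% lower, while YAP itself (*Yap1*) was 19.9% higher and TAZ (*Wwtr1*) 9.38% higher. Of the other targets, *Cyr61* was 17.7% lower, *Amotl2* 5.16% lower and *Axl* 1.72% lower, all short of 1.5-fold, and *Ankrd1* was 17.4% higher. The counting intervals of *Axl* and *Ankrd1* held 0. Counts were scaled to library size, log2 fold changes are of CL basal over Ctrl basal, and a difference of at least 1.5-fold was called. By this rule 2 of the 10 genes were lower, where 11.7% of the 17356 genes with at least 20 counts were lower, and 0 were higher, where 6.34% of those genes were higher. The share of 11.7% is not matched to the members in counts, and the share lower falls as counts rise. Among genes with summed counts like those of a member, it ran from 1.19% for *Ctgf* to 6.62% for *Ankrd1*. A count of 2 of 10 lay above each of these shares, though the members are few. None of the 10 reached 2-fold (*Ctgf* did when scaled by total counts, at -1.03), which 4.78% of genes passed as lower and 2.07% as higher. The median log2 fold change of the members was -0.08, beside -0.01 over all genes tested.

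**Figure D3:**
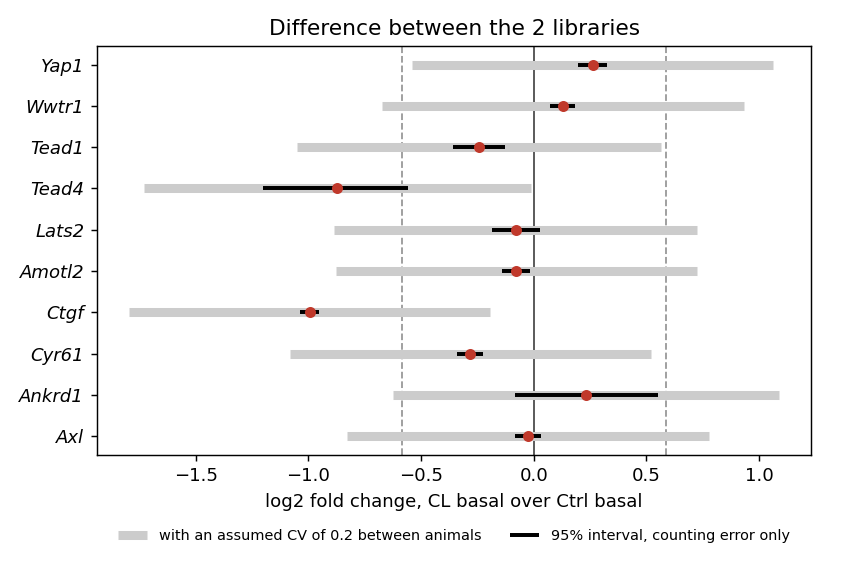
Log2 fold change of each member, CL basal over Ctrl basal (red points), with its 95% interval for counting error (black) and the interval with an assumed coefficient of variation of 0.2 between animals added (grey); dashed lines mark 1.5-fold. The grey interval reaches 0 for all genes except *Ctgf* and *Tead4*.

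Intervals of 95% are exact binomial (Clopper-Pearson) intervals on counts divided by 2, since the 2 reads of a fragment seem to be counted one by one. They cover counting error only. By this measure 7 of the 10 genes had an interval that did not hold 0, beside 36% of all genes tested. With counts not halved it was 9 of the 10, beside 50.6%. Counting intervals narrow as counts rise, and both shares include genes with far fewer counts than any member. These contrasts are therefore not matched for counts and cannot be read as a trait of the members. Animals also differ from each other, and 1 library per group cannot show by how much. If a coefficient of variation of 0.2 between animals is assumed, the interval leaves out 0 for 2 genes and for 2.94% of all genes tested. The 2 are *Ctgf* (-1.79 to -0.19) and *Tead4* (-1.73 to -0.01). For *Tead4* this depends on the scaling. Its log2 fold change moved from -0.87 to -0.84 with upper quartile scaling, a shift larger than the gap between its interval and 0.

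Among the effectors, *Yap1* (chromosome 9, 7931999 to 8004596, minus strand, GRCm38) encodes YAP, a co-activator without DNA-binding domain. Its counts were 6897 in Ctrl basal and 8287 in CL basal, for a log2 fold change of 0.26 with an interval from 0.20 to 0.33. *Wwtr1* (chromosome 3, 57455649 to 57575910, minus strand) encodes its paralogue TAZ and counted 9798 and 10740 reads (log2 fold change 0.13, 0.07 to 0.19). Both co-activator genes were thus slightly higher in CL basal, under 1.5-fold. The 1163 genes of like abundance had a median of 0.09, and 56.9% of them had a lower log2 fold change than *Wwtr1*, so its value was ordinary for its level. Among 1463 genes like *Yap1* in abundance, 82.0% had a lower log2 fold change. Per length, *Wwtr1* exceeded *Yap1* by a ratio of 2.75 in Ctrl basal and 2.51 in CL basal. Of the exonic bases of *Yap1*, 116 are shared with the opposite-strand gene *Gm20416* (707 and 878 counts). Without the counts of *Gm20416*, the log2 fold change of *Yap1* was 0.26.

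The TEAD proteins carry YAP and TAZ to DNA. *Tead1* (chromosome 7, 112679318 to 112906807, plus strand) had 2705 counts in Ctrl basal and 2291 in CL basal (log2 fold change -0.24, -0.36 to -0.13). *Tead4* (chromosome 6, 128224288 to 128300823, minus strand) had 460 and 251 counts (log2 fold change -0.87, -1.20 to -0.56). Of 4135 genes with summed counts between 50% and 200% of those of *Tead4*, 6.38% were past 1.5-fold lower and 78 had a lower log2 fold change than *Tead4*. The other family members were also lower in CL basal. *Tead3* had 613 and 421 counts (log2 fold change -0.54, -0.81 to -0.29), and *Tead2* had 292 and 210 (-0.47, -0.85 to -0.11), both short of 1.5-fold. All 4 TEAD genes were therefore lower, by different amounts, as were 8977 of the 17356 genes tested. *Tead4* was the one past the threshold. Among 2949 genes like *Tead1* in abundance, 10.4% had a lower log2 fold change than *Tead1*. Summed over the 4 genes, they held 106 CPM, counts relative to depth, in Ctrl basal against 82.5 in CL basal, and *Tead1* made up 37.8% of the summed RPKM in Ctrl basal and 44.6% in CL basal.

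*Lats2* (chromosome 14, 57642077 to 57758388, minus strand) encodes the kinase that phosphorylates YAP and is itself a YAP target, which closes a feedback loop. It had 2969 counts in Ctrl basal and 2815 in CL basal (log2 fold change -0.08, -0.19 to 0.03). It shares 332 exonic bases with *Xpo4* on the same strand (537 and 722 counts). With the counts of *Xpo4* subtracted, which cover far more than the shared bases, the value was -0.22. *Amotl2* (chromosome 9, 102716672 to 102733418, plus strand) encodes an angiomotin-like protein that binds YAP at cell junctions, and it is also a YAP target. Its 8635 and 8207 counts came to -0.08 on the log2 scale (-0.14 to -0.01). Both feedback genes thus stayed close to their Ctrl basal level.

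*Ctgf* (chromosome 10, 24595442 to 24598683, plus strand) encodes connective tissue growth factor and is the target gene most often used as a readout of YAP. It had 26328 counts in Ctrl basal and 13250 in CL basal. The log2 fold change was -0.99 (-1.04 to -0.95), just short of 2-fold, and it was -1.08 once a smooth trend of fold change on abundance was taken out. Few genes of its abundance differed as much: of 586 genes with summed counts between 50% and 200% of those of *Ctgf*, 1.19% were past 1.5-fold lower and 2 had a lower log2 fold change. These 2 genes, *Ceacam1* and *Aldh1a3*, are named here after their values were seen. In the plot of fold change against abundance, *Ctgf* lies below the dense band of genes at its level, *Cyr61* lies at the lower edge of that band, and *Axl*, *Amotl2*, *Wwtr1* and *Yap1* lie within it.

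**Figure D4:**
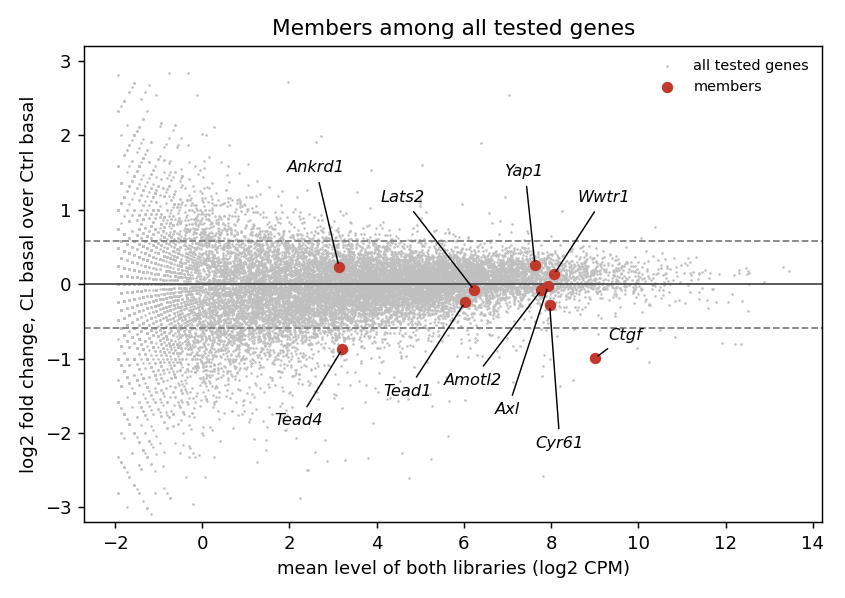
Log2 fold change, CL basal over Ctrl basal, against the mean level of both libraries in log2 CPM for all 17356 tested genes (grey) and the 10 members (red); dashed lines mark 1.5-fold, and 35 genes lie outside the plotted range. *Ctgf* and *Tead4* are the members below the lower dashed line.

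An overlapping gene limits what the *Ctgf* count shows. The gene *Gm15270* on the opposite strand shares 665 of the 2861 exonic bases of *Ctgf*, and the use of strand in the counting was not stated. *Gm15270* had 12835 counts in Ctrl basal and 6380 in CL basal (log2 fold change -1.01), so reads of the 2 genes cannot be told apart over the shared bases. With all *Gm15270* counts subtracted, *Ctgf* had 13493 and 6870 counts, and its log2 fold change was -0.98. Since the 2 genes had near equal fold changes, the subtraction could not move this value far and is no check on it. Whether shared reads were counted for both genes is not known.

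*Cyr61* (chromosome 3, 145646976 to 145649981, minus strand) encodes the closest relative of *Ctgf* among the members. It had 10510 counts in Ctrl basal and 8666 in CL basal (log2 fold change -0.28, -0.34 to -0.22). The ratio of *Ctgf* to *Cyr61* in RPKM was 1.77 in Ctrl basal and 1.08 in CL basal, so the pair changed unequally. Of 1224 genes of like abundance, 58 had a lower log2 fold change than *Cyr61*. *Ankrd1* (chromosome 19, 36111965 to 36119844, minus strand) encodes a nuclear and sarcomeric ankyrin repeat protein, and it had 310 and 365 counts (log2 fold change 0.23, -0.08 to 0.55). With halved counts, no difference in *Ankrd1* was detectable at this depth, while with counts not halved its interval left out 0. *Axl* (chromosome 7, 25757273 to 25788705, minus strand) encodes a receptor tyrosine kinase for GAS6. Its 9439 and 9297 counts gave -0.02 (-0.08 to 0.03), with the sign turned to 0.01 when libraries were scaled by the upper quartile, and no difference was detectable for it either.

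The other genes of the pathway were read from fixed lists. Among 17 genes of the kinase cascade and its upstream regulators, 0 passed 1.5-fold in either direction, beside 11.7% lower and 6.34% higher over all genes tested. These shares fall as counts rise. Among 2802 genes like *Lats2* in abundance, 2.46% passed in either direction, so a count of 0 does not set the list apart. Of the 17, 6 were lower and 11 higher, with a median log2 fold change of 0.05. The lowest was *Taok3*, a kinase that acts on the cascade (1899 counts in Ctrl basal and 1510 in CL basal, -0.33, interval -0.47 to -0.19), and the highest was the cadherin *Fat4* (1432 and 1722 counts, 0.26, 0.12 to 0.41). *Lats1*, the other LATS kinase, had 2351 and 2743 counts (0.22, 0.11 to 0.33). Genes of the cascade thus lay on both sides of 0, all within 1.5-fold.

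Of 11 genes for partners and retaining proteins, 9 had at least 20 counts and none of these passed 1.5-fold, beside 11.7% lower and 6.34% higher over all genes tested. With 9 genes, a count of 0 is not far from these shares. The median was -0.05. *Vgll1* and *Vgll2*, which encode TEAD cofactors, had 0 counts in both libraries, which allows up to 0.0782 CPM in Ctrl basal and 0.078 in CL basal (3 counts). *Tead3* was the lowest of the list, and *Amot*, the gene of angiomotin, was the highest (345 and 452 counts, 0.38).

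A further list held 16 genes widely used as YAP and TAZ targets. Of these, 5 were past 1.5-fold lower, beside 11.7% of all genes tested, and 0 higher, beside 6.34%. The share lower was 1.57% among 2802 genes like *Lats2* in abundance, though the list also held genes with fewer counts. In all 8 were lower and 8 higher (9 and 7 when scaled by total counts), with a median of 0.00. Of the 5, *F3*, the gene of tissue factor, had 7663 counts in Ctrl basal and 4322 in CL basal (log2 fold change -0.83, -0.91 to -0.75). *Dock5*, an activator of the GTPase RAC, had 2174 and 1278 counts (-0.77, -0.91 to -0.63). *Myof*, a membrane repair protein, had 4567 and 2857 counts (-0.68, -0.78 to -0.58). *Ccdc80*, a matrix protein, had 622 and 413 counts and lay near the threshold (-0.59, -0.85 to -0.34). The transcription factor gene *Foxf2* had 14 and 6 counts, too few to give a direction (interval of the log2 fold change -3.81 to 0.91).

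The most abundant gene of this list in CL basal went the other way. *Igfbp3*, a binding protein of insulin-like growth factors, had 12275 counts in Ctrl basal and 14638 in CL basal (0.25, 0.20 to 0.30). *Fjx1* was the highest (344 and 451 counts, 0.39), and *Tgfb2*, a TGF-beta ligand, had 2269 and 2806 counts (0.30, 0.19 to 0.42). The list thus held genes with lower and genes with higher counts in CL basal, the latter all under 1.5-fold.

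**Figure D5:**
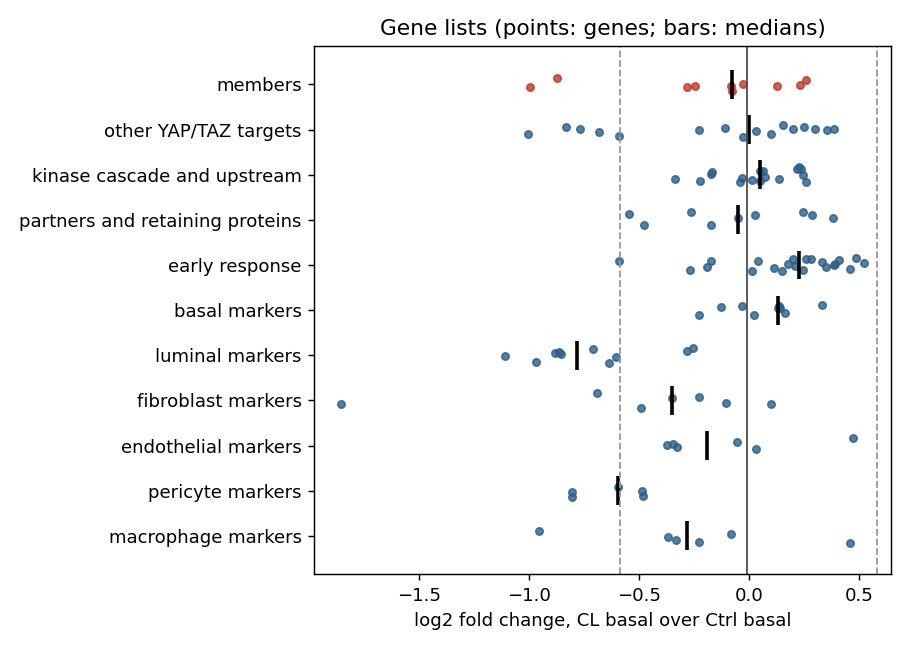
Log2 fold change, CL basal over Ctrl basal, of each gene with at least 20 counts (points) in the members (red) and in the fixed lists (blue), with the median of each list (black bars); the solid line is the median of all tested genes and dashed lines mark 1.5-fold. The 10 luminal genes all lie below 0, and 18 of the 22 early response genes lie above it.

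Several of these genes are also expressed outside basal cells, so markers of other cells were set beside them. In a bulk sample, fewer cells of a type and less RNA per cell cannot be told apart. The basal markers were high in both libraries, led by *Krt14* and *Myh11*. *Myh11* held 285095 counts in Ctrl basal and 290054 in CL basal, and *Oxtr*, with the fewest counts, held 2590 and 2378. None of the 9 passed 1.5-fold, 3 were lower and 6 higher (4 and 5 when scaled by total counts), and their median was 0.13. The lowest was *Krt5*, with 47049 and 40295 counts (-0.23). Luminal markers were lower in CL basal in 10 of 10 genes, 8 of them past 1.5-fold (beside 11.7% of all genes tested), and their summed level went from 4966 to 3152 CPM. *Krt8* led the list with 86539 and 53150 counts, and *Elf5* had the fewest, 84 and 69. No marker of any list had 0 counts in either library.

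Stromal markers were present and mostly lower too. Fibroblast markers summed to 350.2 CPM in Ctrl basal and 298.6 in CL basal and were lower in 6 of 7 genes, from *Fbn1* with the most counts (3893 and 3637) to *Lum* with the fewest (128 and 34). Pericyte markers were lower in 5 of 5 genes, 97.9 and 67 CPM in all, with *Rgs5* at 2281 and 1635 counts and *Kcnj8* at 172 and 98. Of these 5, 3 were past 1.5-fold lower, beside 2 of 7 fibroblast markers, 0 of 6 endothelial markers and 11.7% of all genes tested. Endothelial markers were lower in 4 of 6 genes (5 when scaled by total counts), 395.8 and 323.5 CPM, with *Cdh5* at 6462 and 5173 counts and *Emcn* at 154 and 215. Macrophage markers were scarce, 18.1 and 14.5 CPM in all, and lower in 5 of the 6 genes with at least 20 counts, with *Cd68* at 233 and 185 counts and *Adgre1* at 7 and 10. Of the 6 genes, *Mrc1* was the one past 1.5-fold (168 and 86 counts, -0.95, -1.53 to -0.42). A count of 1 of 6 is not far from the 11.7% of all genes tested that were lower by this rule. The lineage stain of the sort was directed against CD45 on white blood cells, CD31 on endothelial cells and TER119 on red cells, so it targets endothelial cells and macrophages, whereas luminal and stromal cells are set apart by the levels of CD24 and CD29. The part of these cells in the differences of *Ctgf*, *Tead4* and the other targets was not tested.

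*Ctgf* and *Cyr61* are also induced early by growth factors and by handling of cells. Of 22 early response genes, 18 were higher in CL basal (17 when scaled by total counts) and the median was 0.23. Of the 17356 genes tested, 8379 were higher. The highest was *Nr4a1*, a nuclear receptor gene (9285 counts in Ctrl basal and 13395 in CL basal, 0.53). *Rhob*, the gene of a small GTPase, was the lowest (3735 and 2487 counts, -0.59). It was the one gene of the list past 1.5-fold, and it lay near the threshold. Over all genes tested, 11.7% were lower by this rule and 6.34% were higher. *Ctgf* and *Cyr61* were thus lower while most of this list was higher, and the part of the early response in their values was not tested.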

How the data were processed

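The authors deposited raw read counts per gene over annotated exons, not normalized, with exon coordinates and gene lengths in the column layout of featureCounts. The submitters' processing notes name the builds GRCm38 and mm10. The aligner, annotation release, strand setting and filters are not given in the sources used here. Of the 10 members, 8 had the same start and end in GENCODE M21. The table also holds a ratio and its log2 made by the authors, which were not used. A spreadsheet turned 26 gene names into dates, and these rows stayed in the totals.

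The libraries held 38962512 (CL basal) and 37846008 (Ctrl basal) counts. Of values from 1 to 20, 68.7% and 67.9% were even, against 49.9% and 49.7% of values above 1000, so mates appear to have been counted separately, and counts were halved for intervals. PCR copies may narrow the intervals further.

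Counts were scaled by TMM in edgeR 4.0.16 (R 4.3.3), with a prior count of 2 for log2 fold changes. Genes with at least 20 summed counts entered the comparison. Neither edgeR's quasi-likelihood test nor DESeq2 can be fitted to 1 library per group, so no p-value is given. Intervals came from scipy 1.17.1 (Python 3.11.15). The method was tested on simulated counts with all mates in pairs and no variation between animals, so that test covers counting error only. Overlapping genes were found from the exon coordinates of the table, and overlap with others was looked for on both strands. Alternatives were scaling by total counts, DESeq2 1.42.0 size factors or the upper quartile, prior counts of 0.5 and 5, thinning, removal of trends (lowess) on mean expression or exon length, other filters and thresholds, undivided counts and an assumed coefficient of variation of 0.2.

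Named genes were all members, and, among genes of the cascade, partner, further target and early response lists with at least 100 summed counts, those past 1.5-fold and the lowest and highest of each list. Of each list of cell type markers, the most and least counted are named. *Krt5*, *Krt14*, *Mrc1*, *Lats1*, *Tead2*, *Vgll1*, *Vgll2*, *Foxf2*, *Igfbp3* and *Tgfb2* are named outside this rule. The members and lists were chosen with earlier results of these data known, and the comparison with genes of like abundance and the subtraction of overlapping genes were added after values were seen.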

Additional observations from a re-analysis of the deposited data

How the results depend on the processing

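Of 80 values of the 10 members under 8 alternatives of scaling, prior count, depth and trend, 74 stayed within the 95% interval of the reported value. The other 6 arose when a smooth trend of fold change on abundance was taken out, and genes of like abundance had medians above 0. Log2 fold changes were then 0.18 for *Yap1*, 0.046 for *Wwtr1*, -1.08 for *Ctgf* (past 2-fold, as was -1.03 when scaled by total counts), -0.36 for *Cyr61*, -0.16 for *Amotl2* and -0.11 for *Axl*. *Ctgf* and *Tead4* were the 2 members past 1.5-fold under each of these alternatives and both filters (no filter, or at least 100 counts), with ranges of -1.08 to -0.95 and -0.91 to -0.82, and a threshold of 2-fold left 0 members lower. The median of the members ran from -0.15 to -0.04. The medians of the kinase cascade (-0.02 to 0.09) and of the further targets (-0.04 to 0.04) lay near 0 and changed sign. Shares of all genes tested, given next in brackets, are not matched to the members in counts. The interval left out 0 for 7 members (36%) and, with counts as deposited, for 9 (50.6%). With an assumed coefficient of variation of 0.2 it left out 0 for 2 (2.94%). Under that assumption the *Tead4* interval ended at -0.01, a gap smaller than the shift of *Tead4* under upper quartile scaling. Subtracting an overlapping gene, an alternative chosen after seeing the data, moved *Lats2* to -0.22. No paired analysis was possible because only 1 library stood in either group, and for this reason no library could be left out. With counts halved, a difference of the size seen in *Ankrd1* could not be told from 0 at this depth. With counts as deposited its interval left out 0.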

Other observations

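Genes near the members were looked up after the values of *Ctgf* and *Cyr61* had been seen, so they are given as values only. The other CCN family genes, which encode relatives of *Ctgf* and *Cyr61*, were scarce. *Wisp1* had 176 counts in Ctrl basal and 152 in CL basal, *Nov* had 38 and 36, *Wisp2* had 23 and 20, and *Wisp3* had 0 and 2. *Wisp1* differed by -0.21 on the log2 scale (-0.68 to 0.24). At these counts a change of that size in *Nov* or *Wisp2* would lie within the interval (-1.10 to 0.93 for *Nov*, -1.59 to 1.15 for *Wisp2*).

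Other genes that are often read as signs of YAP activity were picked in the same way. *Areg*, which encodes the EGF receptor ligand amphiregulin and is also made by hormone-sensing luminal cells, had 7665 counts in Ctrl basal and 3094 in CL basal (log2 fold change -1.31, -1.40 to -1.23). *Edn1*, the gene of endothelin, had 343 and 224 counts (-0.61, -0.97 to -0.27), and *Birc5*, an inhibitor of cell death that is highest in dividing cells, had 56 and 27 (interval -2.11 to -0.07). *Thbs1*, a matricellular protein gene more abundant than *Ctgf*, had 88507 and 92280 counts (0.06, 0.04 to 0.08), and *Lgals1* had 2627 and 2675 (0.02, -0.09 to 0.13). For *Areg*, the lower luminal markers given above moved in the same direction, and their part was not tested. For *Birc5*, the part of dividing cells was not tested.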
